A study of Caenorhabditis elegans with 2 samples.

Results

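In late embryos of Caenorhabditis elegans, 318 of 1923 nuclear peaks of the RUNX protein RNT-1 lay at the start of more than 1 protein-coding gene. The choice used the position of the summit and the gene annotation, and not the signal. The summit had to lie from 1000 bp upstream to 200 bp downstream of annotated transcript starts of at least 2 protein-coding genes. Of the 318 peaks, 291 sat at divergent starts, where 2 genes on opposite strands point away from each other. The other 27 sat only at starts of neighbours on the same strand, and 0 sat at starts that face each other. Of the sequence that meets this rule, 2.325 of 2.699 Mb is divergent, 0.3594 Mb same-strand and 0.01464 Mb facing. With so little facing sequence, the 0 has an interval of 0 to 252 summits per Mb. A further 743 peaks lay at the start of 1 gene, and 862 lay in no start window.

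RUNX proteins bind DNA through the Runt domain, usually together with a partner of the CBF beta family, and recognise a short core sequence. RNT-1, the RUNX protein of this worm, is best known from the seam cells of the epidermis, whose divisions it promotes. Divergent genes share the stretch between their starts, so that a factor bound there is near both promoters. In C. elegans, closely spaced genes on 1 strand are often transcribed together from the promoter of the first, as operons.

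The measurement was ChIP-seq of whole hermaphrodite late embryos, 5 h after synchronization by bleaching, in 2 biological replicates that form 1 group. The strain, OP462, has the genotype unc-119(tm4063) III; wgIs462 and carries RNT-1 with GFP and FLAG at its C terminus. Chromatin was pulled down through the GFP, per the sample notes, whereas the antibody field reads rnt-1. Whole animals were used, so a peak cannot be assigned to a cell type.

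The sequences around the highest peaks show what these summits look like. The following stretches come from the RefSeq WBcel235 genome (ce11) and are on the forward strand. They were the highest divergent and the highest same-strand ones that held no annotated UTR or coding sequence, outside 1 chromosome that was left out. Each is centred on the summit, except that of ears-2/uncp-18, which is the whole stretch between both starts. Capitals mark words that recur at these summits, on either strand. They are the RUNX core, which is TGCGGT or TGTGGT, the GA repeat word GAGAGA, the words ACGCAG and also ACCGTA, and the GC-rich words GAGCGC with GCGCAC, followed by AGCGCG and also ACGCGC.
K01G5.10/tasp-1, divergent, chrIII:10759200-10759300: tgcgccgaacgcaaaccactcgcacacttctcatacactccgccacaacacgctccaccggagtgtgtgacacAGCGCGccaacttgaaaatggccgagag
atx-2/ecps-1, divergent, chrIII:10461281-10461381: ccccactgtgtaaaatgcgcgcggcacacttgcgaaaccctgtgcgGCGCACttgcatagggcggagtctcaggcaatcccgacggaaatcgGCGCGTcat
ears-2/uncp-18, divergent, all bases between the starts, chrIV:390469-390559: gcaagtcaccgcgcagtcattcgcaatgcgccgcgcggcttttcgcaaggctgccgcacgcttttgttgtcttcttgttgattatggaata
W03C9.5/mex-1/rab-7, divergent, chrII:11967675-11967775: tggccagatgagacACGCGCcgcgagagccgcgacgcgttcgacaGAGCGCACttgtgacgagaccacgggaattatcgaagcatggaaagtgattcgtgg
Y62F5A.12/mdt-8, same strand, chrII:11534744-11534844: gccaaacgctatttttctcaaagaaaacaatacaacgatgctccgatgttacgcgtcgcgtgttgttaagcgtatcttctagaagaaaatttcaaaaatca
Y41D4B.4/rps-28, same strand, chrIV:1659219-1659319: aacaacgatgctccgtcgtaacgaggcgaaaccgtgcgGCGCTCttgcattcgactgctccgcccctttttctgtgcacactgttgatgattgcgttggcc
None of these 6 stretches held the RUNX core, which was within 50 bp of the summit at 9.43% of all shared peaks. The hsr-9/rps-19 peak, with a signal of 542.6 and a core, lies on the chromosome that was left out. Both same-strand stretches lay upstream of the first gene of the pair, and 4 of the 6 held at least 1 of the GC-rich words in capitals. Of the 15 highest shared peaks of either arrangement, 6 (40%) held at least 1 of these words within 50 bp of the summit. Over all shared peaks the share was 40.9%, and over single-start peaks 27.6%. The GC-rich words were chosen on the shared summits after their values were seen.

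The next stretches were among the highest of the same kind with a word described further on.
Y47D3A.1/pola-1, RUNX core, chrIII:11142243-11142343: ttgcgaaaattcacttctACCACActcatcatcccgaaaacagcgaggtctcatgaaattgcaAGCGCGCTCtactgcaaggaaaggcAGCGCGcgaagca
W02H5.16/W02H5.19/W02H5.2, RUNX core, chrV:2638665-2638765: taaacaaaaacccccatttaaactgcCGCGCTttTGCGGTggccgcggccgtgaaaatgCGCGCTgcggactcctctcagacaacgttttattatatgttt
atx-2/ecps-1, lower peak, GAGAGA and ACGCAG, chrIII:10460704-10460804: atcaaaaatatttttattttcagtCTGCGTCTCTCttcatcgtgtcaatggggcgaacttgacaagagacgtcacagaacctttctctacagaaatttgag
ifet-1/rps-1, GAGAGA and ACCGTA, chrIII:4475616-4475716: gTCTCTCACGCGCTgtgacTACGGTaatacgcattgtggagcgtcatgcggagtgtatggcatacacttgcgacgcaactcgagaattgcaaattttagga
K11H12.8/rpl-15, ACCGTA, chrIV:654866-654966: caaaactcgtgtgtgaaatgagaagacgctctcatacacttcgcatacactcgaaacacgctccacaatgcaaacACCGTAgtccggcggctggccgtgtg
Y17G9B.5/rpl-20, ACCGTA, chrIV:4750011-4750111: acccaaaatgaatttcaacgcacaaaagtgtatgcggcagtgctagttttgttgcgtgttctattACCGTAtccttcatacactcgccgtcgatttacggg

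The signal of a peak is a score without a stated scale that the authors deposited with each region, and it is given here from the list called on both replicates and from each replicate's own list. The highest peak, with a signal of 708.6, lay between K01G5.10 and tasp-1, a taspase homologue, 57 bp from the tasp-1 start. Its signal was 399.3 in replicate 1 and 313 in replicate 2. It ranked 9 among the regions of replicate 1 and 4 among those of replicate 2, high in both.

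The second, between atx-2 and ecps-1, had a signal of 588.8, with 370.5 in replicate 1 and 214 in replicate 2. ATX-2 is the ataxin-2 homologue, an RNA-binding protein of translational control. A lower peak with a signal of 303.0 lay 577 bp away between the same starts, so this pair carried 2 summits. The third, between ears-2, a mitochondrial glutamyl-tRNA synthetase, and uncp-18, had a signal of 561.0, with 368.7 and 190.5 in the replicates. These starts are 92 bp apart, and the summit lay 36 bp from the nearer one, so that this peak is next to both.

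The peak between hsr-9, related to the DNA damage protein 53BP1, and rps-19 of the small ribosomal subunit had a signal of 542.6, with 322.4 in replicate 1 and 213.3 in replicate 2. At 540.9 stood a peak of 3 genes, rab-7, mex-1 and W03C9.5, whose signal was 329.2 in replicate 1 and 204.5 in replicate 2. MEX-1 is a zinc finger protein of early embryonic cell fate, and RAB-7 is a GTPase of late endosomes. The peak between sec-61.B and trap-3, which encode parts of the translocon of the endoplasmic reticulum, had a signal of 444.6, with 274.9 and 170.7 in the replicates. Each of these 6 peaks ranked among the first 24 regions of both replicates.

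The remaining 9 of the 15 highest peaks had signals from 354.6 to 443.7. They lay at alg-5 with the histone genes his-67 and his-68, at K10D2.5, the cell cycle gene emb-1 and the splicing gene prp-19, and at K11H12.8 with rpl-15. Next came Y62F5A.12 with the Mediator subunit mdt-8, nhl-2 with tag-340, Y71G12B.30 with the chromatin assembly factor chaf-2, and Y41D4A.4 with Y41D4A.6. The last were Y41D4B.4 with rps-28, and F29B9.11 with the histone demethylase jmjd-1.2. Thus 2 of the 15, at mdt-8 and rps-28, were same-strand peaks, and the hsr-9/rps-19 peak was the one among the 15 with a RUNX core.

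**Figure D1:**
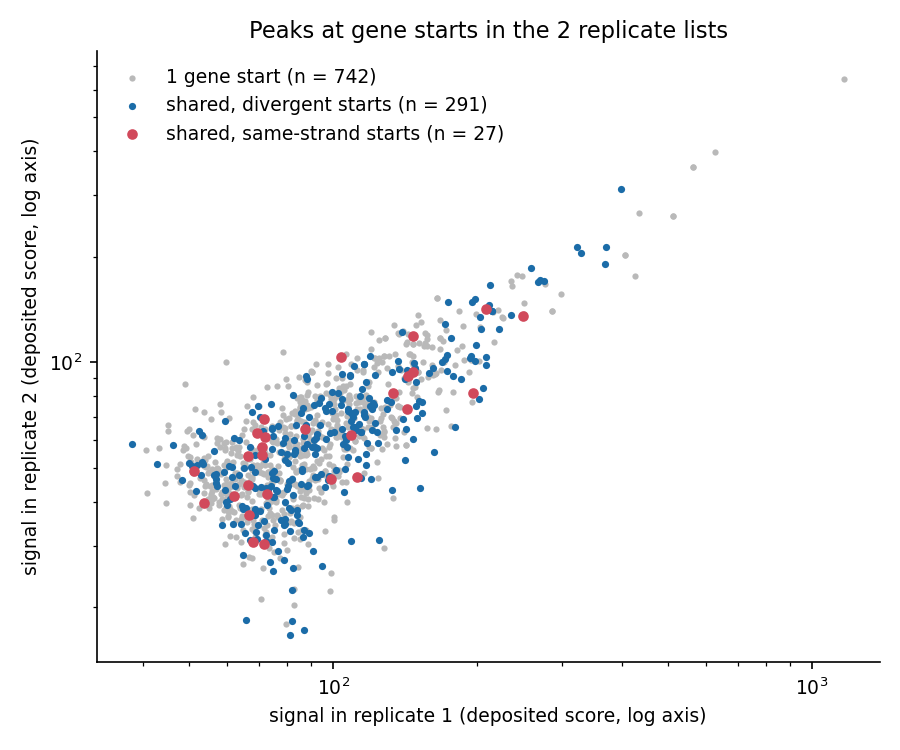
Signal of each peak at a gene start in replicate 1 (x) against replicate 2 (y), both on log axes, with 1 point per peak. Peaks of 1 gene start are grey, shared peaks with divergent starts are blue and those with same-strand starts are red. The shared peaks lie within the cloud of the others, with a median of 88.98 in replicate 1 and 58.8 in replicate 2. One peak of a single gene has no region in replicate 2 and is not drawn.

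Over all 318 shared peaks the signal ranged from 95.8 to 708.6, with a median of 148.7 (95% interval 139 to 157). The median was 140 (135 to 146) at single gene starts and 133 (129 to 136) away from starts. In replicate 1 the medians were 88.98 at shared and 85.7 at single starts, and in replicate 2 they were 58.8 and 57.2. Of the shared peaks, 57.2% lay above the median of all nuclear peaks, against 51.95% of single-start peaks. The difference of 5.28 percentage points had a 95% Newcombe interval of -1.27 to 11.7, which includes 0. Intervals here and below cover counting error over peaks, and peaks of 1 sample are not replicates of a condition.

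The 4 strongest nuclear peaks were single-start peaks, with signals up to 1809, and the highest shared peak came next. The 100 strongest nuclear peaks comprised 26 shared peaks, 31 single-start peaks and 43 peaks in no start window. They held 8.18% of all shared and 4.17% of all single-start peaks, a difference of 4 points (0.957 to 7.74). Ranked within each replicate, 92.5% of shared peaks were among the first 1931 regions of replicate 1 and 83.3% among those of replicate 2. For single-start peaks these shares were 87.5% and 87.4%. The difference was 4.97 points (0.895 to 8.50) in replicate 1 and -4.02 points (-9.01 to 0.492) in replicate 2, so the sign differed between replicates, with an interval that includes 0 in replicate 2. Both replicates had 76.1% of the shared and 75.6% of the single-start peaks among their first 1931.

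Gene starts that share sequence were denser in summits than gene starts on their own. Bases in the start windows of 2 or more genes make up 2.69% of nuclear sequence and held 16.5% of the summits. That is 118 summits per Mb (95% exact Poisson interval 105 to 132), against 31.6 (29.4 to 34.0) in windows of 1 gene and 11.6 (10.9 to 12.4) outside windows. The ratio of shared to single windows was 3.73 (3.26 to 4.26). Divergent windows held 125 summits per Mb (111 to 140) and same-strand windows 75.1 (49.5 to 109), a ratio of 1.67 (1.12 to 2.57). Same-strand windows were in turn denser than windows of 1 gene, by a ratio of 2.38 (1.56 to 3.49).

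Bases in shared windows lie nearer to a start than those in windows of 1 gene, so density was also compared at equal distance from the nearest start. Within 99 bp upstream, shared windows held 198 summits per Mb and windows of 1 gene 40.7, a ratio of 4.86 (3.58 to 6.60). From 100 to 199 bp upstream the densities were 269 and 74.7, with a ratio of 3.60 (2.76 to 4.68). From 200 to 399 bp they were 186 and 51.7, again with a ratio of 3.60 (2.78 to 4.64). Beyond that, from 400 to 1000 bp, the ratio was 2.09 (1.33 to 3.15). Downstream of the nearest start the densities were 12.7 and 10.3, and the interval of their ratio, 0.576 to 2.44, included 1. The higher density thus lay upstream of the starts, at each of the 4 upstream distances.

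**Figure D2:**
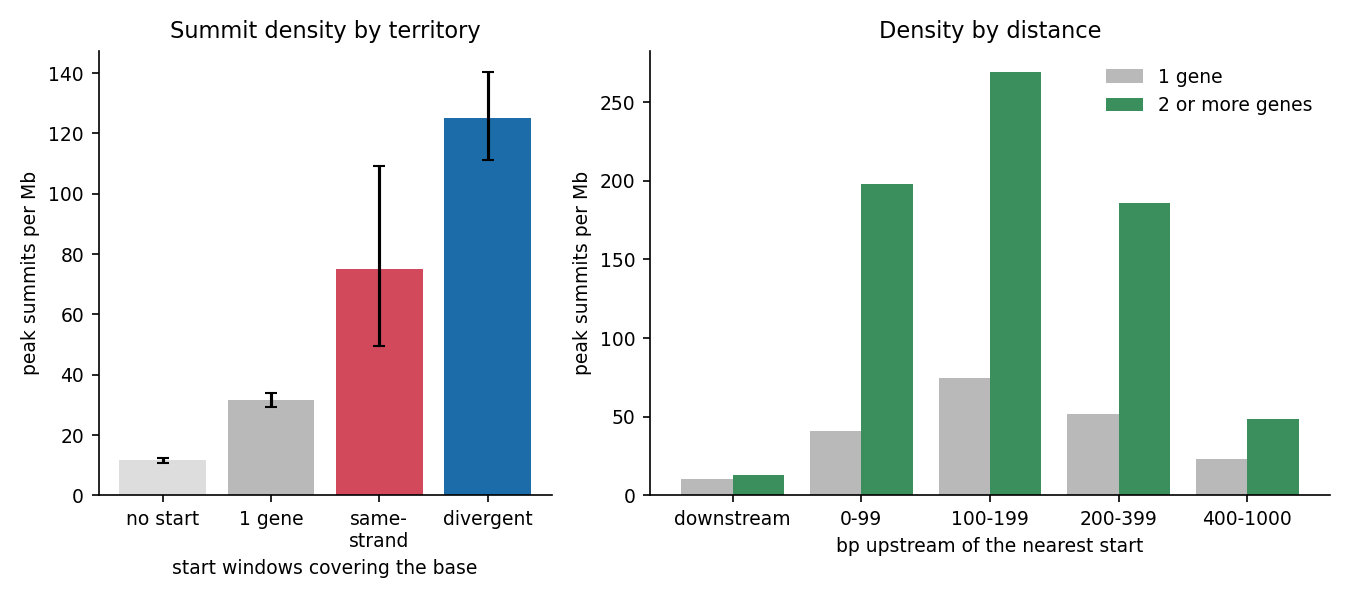
Left, peak summits per Mb of sequence (y) by the start windows that cover a base (x), with 95% exact Poisson intervals. Right, summits per Mb (y) by distance upstream of the nearest start in bp (x), for windows of 1 gene (grey) and of 2 or more genes (green). Divergent windows stand at 125 and windows of 1 gene at 31.6, and the green bars are the higher ones at each upstream distance.

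Peaks at gene starts, shared and single, were more frequent among stronger regions. Shared peaks made up 16.5% of the nuclear peaks of the IDR list, the one thresholded by the irreproducible discovery rate. In the longer pooled list their share was 9.42% from rank 1932 to 5000, 4.62% from 5001 to 10000 and 2.78% (2.35 to 3.28) from 15001 to 19793. The share of single-start peaks went from 38.6% in the IDR list to 25.2% in that last range. The first 1931 regions of replicate 1 alone gave 16.7% and those of replicate 2 gave 15.7%. The replicates thus lay within 1 percentage point of each other.

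The 318 peaks touched 646 different genes. Of all 19973 nuclear protein-coding genes, 6.75% had a summit in a start window and 3.23% had one in a shared window. Of the 7211 genes whose window overlaps that of another gene, 8.96% had a summit in the overlap. A peak counted for every gene whose window held it, and the data do not say on which of the genes RNT-1 acts. Most peaks, 298, had 2 genes, 19 had 3 and 1 had 4. The peak of 4 genes, at Y62E10A.20, Y62E10A.23, the RNA-processing gene lsm-3 and the Mediator gene mdt-9, had a signal of 131.9, with 82.0 in replicate 1 and 46.5 in replicate 2.

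After the peak at mex-1 and those at alg-5 and prp-19, the highest peaks of 3 genes lay at C07H6.2, cux-7 and the DNA ligase gene lig-4, and at C45B11.8, C45B11.9 and the kinase gene pak-2. Their signals were 347.7 and 300.0. All 20 peaks of at least 3 genes had starts on both strands and counted as divergent, although they also hold neighbours on the same strand. Their median signal was 176 (132 to 255). Gene sets with 2 peaks were rare, 5 of 313. Besides atx-2/ecps-1 these were F29B9.11/jmjd-1.2, aka-1/ubc-6, ruvb-1/tofu-1 and F48F5.8/fce-2, named after their values were seen, with summits from 200 to 577 bp apart.

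At divergent pairs 282 of 291 summits, or 96.9%, lay between the 2 starts. The window rule bounds this share. It allows at most 200 bp beyond either start and, for starts over 1000 bp apart, no position near either start. Over all shared windows, same-strand ones included, positions downstream of the nearest start covered 0.8635 of 2.699 Mb. They held 11 of the 318 summits. Where the starts were under 1000 bp apart every base between them was allowed, and an even spread would put 50% of summits into the central 50% of the stretch. There 157 of 244 summits, or 64.3% (58.1 to 70.1), fell into it. Over all 282 the share was 64.5% (58.8 to 69.9), and it moved with the window, from 56.2% with 2000 bp upstream to 500 bp downstream to 71.4% with 500 bp to 100 bp. The median stretch was 531 bp long, and 52.5% of summits lay within 100 bp of its midpoint. The plus-strand start was the nearer one for 155 of the 282, with an interval on that share of 49.1% to 60.7%. That interval includes 50%, so neither strand was favoured beyond counting error. The nearest start was a median of 158 bp from the summit, a distance that the windows bound.

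The share in the central 50% was similar at most lengths of the stretch under 1000 bp. It was 64.0% at 200 to 399 bp, 69.7% (59.5 to 78.2) at 400 to 699 bp and 64.3% at 700 to 999 bp. Where the starts were 1 to 199 bp apart it was 11 of 24 (45.8%, 27.9 to 64.9), an interval that overlaps the others. The 65.8% at 1000 to 2000 bp is not comparable, because the window rule allows no position near either start there. In 60 of the 318 shared peaks the deposited region covered both starts of the pair.

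Most divergent pairs carried no peak. Among 2712 annotated pairs of neighbouring divergent genes with starts up to 2000 bp apart, 326 (12.02%, 10.9 to 13.3) had a summit between the starts. The share was 8.39% (5.66 to 12.3) for starts 1 to 199 bp apart, 14.5% (11.7 to 17.9) at 200 to 399 bp and 10.7% (8.85 to 13.0) at 1000 to 2000 bp. Counted per base the order was different. The shortest stretches held 641 summits per Mb, those of 200 to 399 bp held 498, and those of 1000 to 2000 bp held 78.1. The share of pairs with a summit thus varied by far less than the density of summits on the sequence between them.

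**Figure D3:**
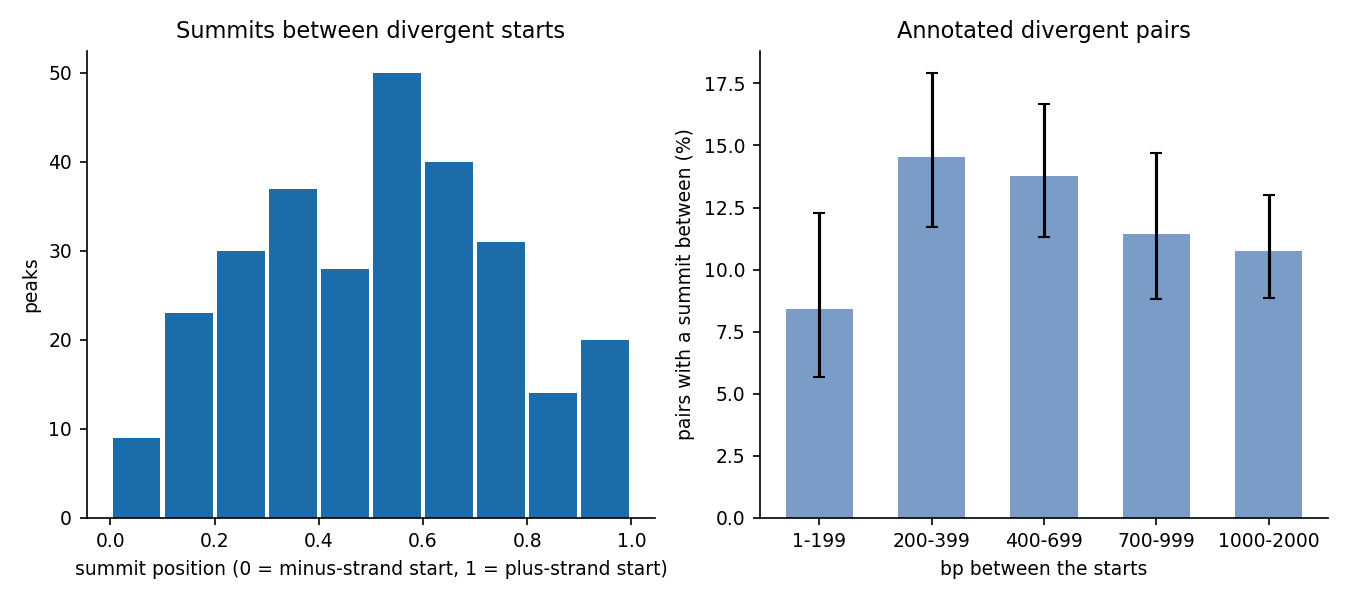
Left, the number of divergent shared peaks (y) by the summit's position between the minus-strand start (0) and the plus-strand start (1) on the x axis. Right, the percentage of annotated divergent pairs with a summit between their starts (y, with 95% Wilson intervals) by the distance between the starts in bp (x). The tallest bar on the left, with 50 peaks, starts at 0.5, and the bars on the right run from 8.39% to 14.5%.

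The 27 same-strand peaks fell into 2 kinds. In 15 the genes followed each other with 47 to 123 bp between them, the spacing typical of operons in this worm. In 12 the gene models overlapped, and 6 of the 27 peaks included a gene model of under 100 bp. The summit lay upstream of both starts in 25 and between the starts in 2. The highest were Y62F5A.12/mdt-8 with 384.2, Y41D4B.4/rps-28 with 355.2 and F55A11.11/F55A11.6 with 278.7. The next were K11D12.14/pqn-51 with 265.8 and Y71G12A.5/tub-2 with 238.7, where K11D12.14 and Y71G12A.5 are models of 51 and 30 bp inside the other gene.

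Both leading same-strand peaks were high in both replicates. At Y62F5A.12/mdt-8 the signal was 249.1 in replicate 1 and 135.7 in replicate 2, and at Y41D4B.4/rps-28 it was 208.5 and 141.7. Over the 27 peaks the pooled median was 140.4 (117 to 217), against 148.8 (139 to 159) over the 291 divergent ones. The share above the nuclear median was 57.7% at divergent and 51.9% at same-strand peaks. Their difference of 5.88 points had an interval of -12.4 to 24.6, so no difference was detectable with 27 same-strand peaks.

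The X chromosome had few shared peaks. Only 13 of its 442 peaks (2.94%, 1.73 to 4.97) lay at shared starts, while the 5 autosomes ranged from 18.6% on chromosome II to 24.2% on chromosome III. The annotation differs too, since shared windows cover 0.982% of X and from 2.84% to 3.19% of each autosome. Per Mb of shared window X held 74.7 summits (39.8 to 128) and the autosomes together 121 (108 to 135). In windows of 1 gene the order was the other way round, with 53.3 per Mb on X and 27.6 on the autosomes. The ratio of shared to single windows was therefore 1.40 (0.733 to 2.45) on X and 4.38 (3.80 to 5.05) on the autosomes, and these intervals do not overlap.

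**Figure D4:**
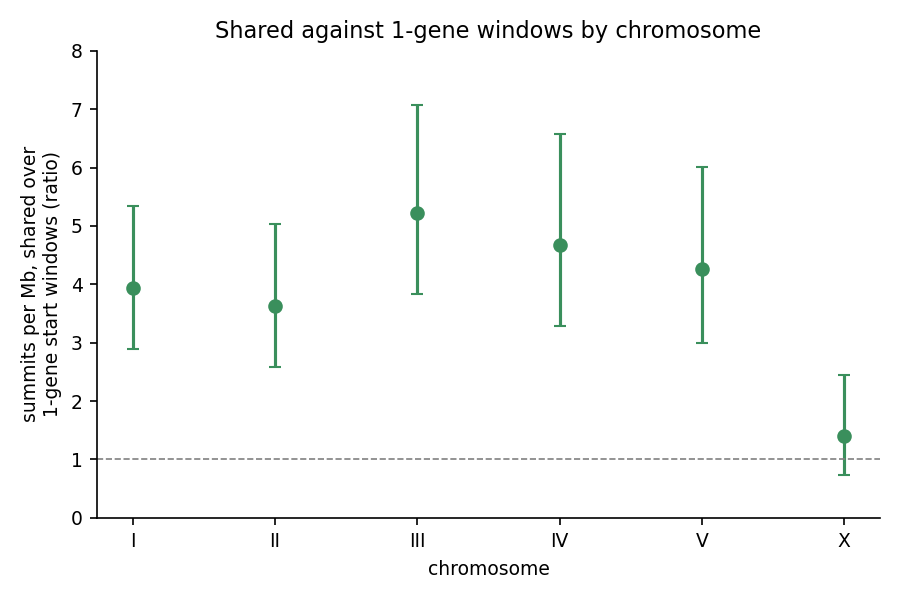
Ratio of summit density in shared start windows to that in windows of 1 gene (y, with 95% exact intervals) for each chromosome (x). The dashed line marks equal density. The autosomes lie between 3.62 and 5.22, and X lies at 1.40 with an interval that includes 1.

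Several families of genes with general cellular roles had many members at shared peaks. The lists below were chosen with earlier results of these data known and are described by counts alone, with no test, beside the 3.23% of all protein-coding genes. Of 78 genes of cytosolic ribosomal proteins, 29 (37.2%, 27.3 to 48.3) lay at a shared peak, on 27 peaks. Among chaperones and chaperonins it was 18 of 65 (27.7%), among subunits of the respiratory chain and proton pumps 12 of 63 (19.05%), and among splicing factors 8 of 44 (18.2%). Proteasome subunits had 6 of 33 (18.2%), Rab, Arf and Arl GTPases 5 of 30 (16.7%), translation factors 6 of 42 (14.3%) and Mediator and basal transcription factors 9 of 69 (13.0%). Mitochondrial ribosomal proteins, with 3 of 70 (4.29%, 1.47 to 11.9), and aminoacyl-tRNA synthetases, with 3 of 31 (9.68%, 3.35 to 24.9), had intervals that begin near or below the share of all genes.

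These families also tend to lie close to other genes, which the counts do not take apart. Of the ribosomal protein genes, 75.6% have a start window that overlaps that of another gene, against 36.1% of all genes. For proteasome subunits that share was 81.8%, and for body wall muscle genes 16.7%. Genes of the muscle list were nevertheless bound often, 19 of 30, and 3 of those 19 lay at a shared peak. For ribosomal proteins 29 of 39 bound genes did, or 74.4%, and over all bound genes it was 47.9%.

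The highest ribosomal peaks were those at rps-19, rpl-15 and rps-28. At K11H12.8/rpl-15 the signal was 438.4, with 267.7 in replicate 1 and 169.1 in replicate 2. Among chaperones the highest were Y22D7AL.10/hsp-60 with 324.7, C47E8.4/hsp-90 with 287.0 and dnj-28/supr-1 with 260.0. HSP-60 is the mitochondrial chaperonin, and HSP-90 is a cytosolic chaperone of many signalling proteins.

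Among translation factors, F54C9.14/iff-2 had 305.9, B0511.17/eif-3.E had 271.3 and ctf-4/eef-1G had 248.1. Splicing was represented by prp-19, by snr-1/snx-13 with 295.5 and by the head-to-head pair rsp-1/rsp-2 with 175.3, both splicing factors. Of the respiratory chain, cox-6B and nduc-2 shared a peak of 254.7 with Y71H2AM.20, and vha-8 of the vacuolar proton pump stood at 186.2 with C17H12.2. The subunit atp-5 shared a peak of 183.5 with lmtr-3.

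Pairs in which both genes belonged to 1 list were few: 2 peaks for ribosomal proteins, 1 for splicing factors and 4 for histones. The histone pairs his-61/his-62 and his-31/his-32 had signals of 162.6 and 119.9. Of 72 histone genes 69 have a window that overlaps that of another gene, and 8 had a shared peak. Histone genes are near-identical copies, and how reads that match several copies were counted is not given in the sources used here. Where 1 gene of a divergent pair was on a list, the summit was nearer to that gene at 9 of 21 pairs for cytosolic ribosomal proteins. It was nearer at 3 of 15 for chaperones, 4 of 8 for the respiratory chain and proton pumps and 5 of 6 for translation factors. For proteasome subunits it was 3 of 5, for synthetases 2 of 3, for splicing factors 1 of 4 and for mitochondrial ribosomal proteins 0 of 3. The GTPases had 2 of 3, Mediator and basal transcription 2 of 4 and muscle genes 1 of 1. Collagens had 0 of 3, chemoreceptors 2 of 6 and nuclear hormone receptors 1 of 2.

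Shares below that of all genes were found for nuclear hormone receptors with 2 of 269 (0.743%), cuticle collagens with 3 of 156 (1.92%) and chemoreceptors with 6 of 1310 (0.458%). Among mitochondrial ribosomal proteins mrps-35/sws-1 was highest at 230.0, and the synthetases were led by ears-2. Besides mdt-8, the Mediator and basal transcription list had pqn-59/taf-4 with 181.6, and besides rab-7 the GTPases had rab-11.1/rpl-7 with 184.5. In all, 107 of the 318 peaks held a member of at least 1 of the 15 lists, which include the 1310 chemoreceptor genes. The same count was not made for single-start peaks, so 107 cannot be called high or low.

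The RUNX core was less frequent at shared than at single gene starts. Within 50 bp of the summit it was found at 30 of 318 shared peaks (9.43%, 6.69 to 13.2) and at 116 of 743 single-start peaks (15.6%, 13.2 to 18.4). The difference was -6.18 points (-10.1 to -1.74). Its interval included 0 with windows of 500 bp upstream to 100 bp downstream (-2.57 points, -7.23 to 3.10) and within 25 bp of the summit (-2.50 points, -5.77 to 1.33). For the form TGCGGT the shares were 3.46% and 8.48%, a difference of -5.02 points (-7.71 to -1.84). For TGTGGT they were 5.97% and 7.40%, a difference of -1.43 points (-4.42 to 2.15), and the 2 differences were not compared. At the midpoint of divergent pairs the core was found in 4.90% (4.11 to 5.84) of the 2386 without a peak and in 3.99% (2.35 to 6.70) of the 326 with one. These midpoints are not summits and have a lower mean GC content, 34.0% and 37.2%, against 48.2% at shared summits. The core was found 300 bp to either side of the shared summits in 5.03% and 5.97% of windows.

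The difference was also taken within other sets of peaks. Among peaks above the nuclear median signal the core was at 7.14% of shared and 17.1% of single-start peaks, a difference of -9.96 points (-15 to -4.14). Below the median the shares were 12.5% and 14.0%, with an interval of -7.55 to 5.84. These intervals overlap, and the differences above and below the median were not compared with each other. With the first 1931 regions of replicate 1 alone the difference was -3.94 points (-8.02 to 0.638), and with those of replicate 2 alone it was -4.72 points (-8.65 to -0.201).

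The highest peaks with a core lay at hsr-9/rps-19, at C07H6.2/cux-7/lig-4, at C28G1.2/sec-15 on X with 332.6, at Y47D3A.1/pola-1 with 232.9 and at W02H5.16/W02H5.19/W02H5.2 with 214.5. POLA-1 is a subunit of DNA polymerase alpha, and SEC-15 is part of the exocyst. In the printed stretch at pola-1 the core stands on the reverse strand, away from the summit. Same-strand peaks held a core in 1 of 27 cases, and the interval on that share, 0.657% to 18.3%, includes the 9.97% of divergent peaks.

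The words GAGAGA and ACGCAG were taken from earlier results of these data and are not independent of them. The GA repeat word GAGAGA was also less frequent, at 17.9% of shared and 30.0% of single-start peaks, a difference of -12.1 points (-17.2 to -6.50). Divergent peaks had it in 16.8% and same-strand peaks in 29.6% of cases, with an interval of the difference of -32.0 to 1.77. Midpoints of divergent pairs had it in 6.54% of cases without a peak and in 9.51% with one. ACGCAG was at 13.8% of shared and 15.9% of single-start peaks, and the interval of the difference, -6.42 to 2.84, included 0. Its share at these midpoints was 2.89% without and 6.44% with a peak. Mean GC content within 50 bp of the summit was 48.2% (SD 7.4, n = 318) at shared and 49.96% at single-start peaks, and at the 300 bp flanks of shared peaks 36.29% and 36.05%.

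The search was then widened to all words. All 2080 words of 6 bases, each merged with its reverse complement, were compared between shared and single-start peaks. The interval of the difference lay above 0 for 190 words and below 0 for 136. No correction was made for the number of words, and the words named from this scan were chosen after their values were seen. AT-rich words such as AAAAAT were more frequent, at 29.2% against 16.2%. The word with the greatest ratio among the 15 words with the largest increase was ACCGTA, which reads TACGGT on the other strand, at 36 shared peaks (11.3%, 8.29 to 15.3) and 17 single-start peaks (2.29%, 1.43 to 3.63).

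ACCGTA stood out at peaks of ribosomal protein genes. It was within 50 bp of the summit at 13 of 27 shared peaks with such a gene (48.1%, 30.7 to 66.0) and at 23 of the other 291 (7.90%, 5.32 to 11.6). Peaks with 1 ribosomal gene start had it in 3 of 11 cases, and other single-start peaks in 14 of 732 (1.91%). The 13 included K11H12.8/rpl-15, Y17G9B.5/rpl-20 with a signal of 339.6, ifet-1/rps-1 with 283.6 and Y48B6A.1/rpl-43 with 239.6. At the midpoint of divergent pairs without a peak ACCGTA was found in 4.23% (3.50 to 5.12), and at that of pairs with one in 6.44% (4.25 to 9.65).

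**Figure D5:**
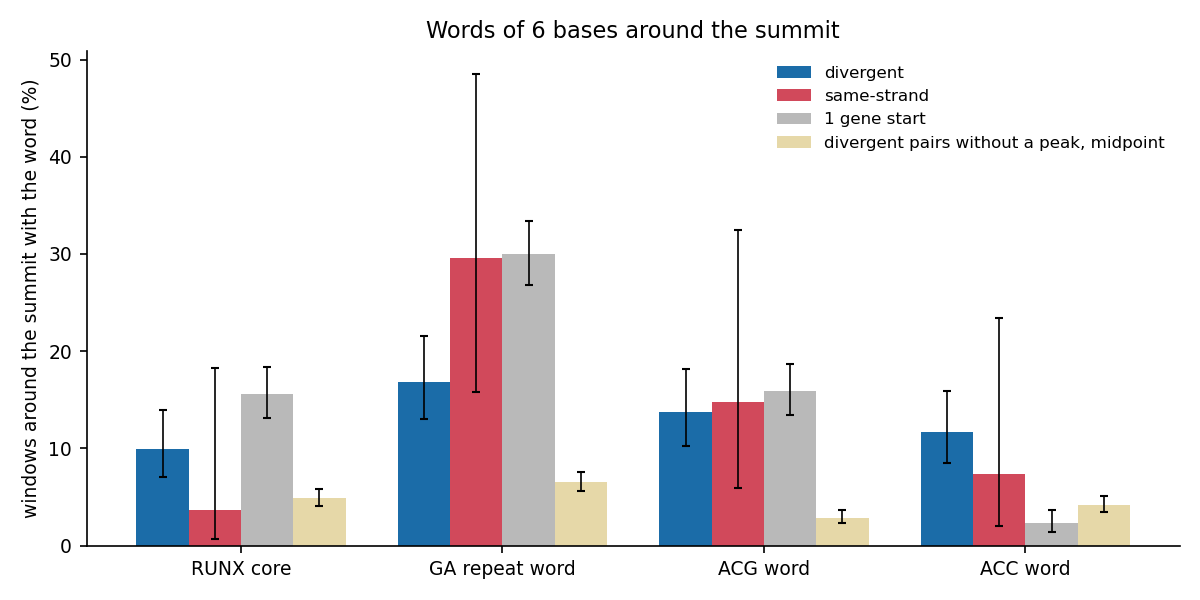
Percentage of windows reaching 50 bp to each side of the summit that hold a word of 6 bases (y, with 95% Wilson intervals), for the RUNX core, the GA repeat word, the ACGCAG word and the ACCGTA word (x). Bars show divergent shared peaks (blue), same-strand shared peaks (red), peaks of 1 gene start (grey) and, as background, midpoints of divergent pairs without a peak (tan). The first 2 words are lower at divergent than at single-start peaks, and the ACCGTA word is higher, at 11.7% against 2.29%.

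At the edge of the window the choice of members rests on a few bases. Just inside lay efl-1/fbxa-90, whose second start was 999 bp away (signal 191.4), knl-1/C02F5.10 at 992 bp (100.9) and C17H12.11/C17H12.37 at 990 bp (95.9). Just outside lay mys-1/VC5.2 at 1013 bp (127.6), R107.5/cls-2 at 1016 bp (281.5) and F40F11.3/mig-38, 239 bp inside the second gene (130.1). Within 50 bp of the edge were 12 members and 7 peaks that were not members.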

How the data were processed

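The data were ChIP-seq peak lists in narrowPeak format, 1 per replicate, 1 called on both replicates and 1 thresholded by the irreproducible discovery rate (IDR). Columns were read as the format defines them. The signal value of a region is used as the authors deposited it, a score whose scale is not stated, and the summit is their offset in the last column. The aligner, the peak caller, the IDR threshold and read depth were not given in the sources used here, so no interval that needs depth is printed. Only the ce11 lists were used. The 8 mitochondrial peaks were left out.

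Starts were those of protein-coding transcripts in Ensembl release 115 (29314 starts of 19973 nuclear genes), and bases came from RefSeq WBcel235, the same assembly. Strand arrangement was set by the nearest plus- and minus-strand starts among those whose windows held the summit. A replicate's value is that of its highest region overlapping the peak. Shares have Wilson intervals, differences of shares Newcombe intervals, densities exact Poisson intervals, density ratios exact conditional intervals and medians exact order-statistic intervals, all at 95%. Peaks are not replicates, so no p-value is given.

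The members, the gene lists and the words GAGAGA and ACGCAG were chosen with earlier results of these data known. Named genes are those of the 15 highest shared peaks, of the 5 highest peaks of each arrangement, with at least 3 genes and with a RUNX core, of every peak of at least 4 genes, of the 3 highest shared peaks per list and of the 3 peaks on each side of the window edge. Others are marked. Python 3.11.15, numpy 2.4.6, pandas 2.3.3 and scipy 1.17.1 were used. Alternatives were other windows, starts, peak sets and word distances.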

Additional observations from a re-analysis of the deposited data

How the results depend on the processing

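Windows of 500 bp upstream to 100 bp downstream gave 199 shared peaks, 96.5% of them divergent, and 71.4% of summits in the central 50% between starts. Windows of 2000 to 500 bp gave 8.37% of X peaks at shared starts and 56.2% in the central 50%, and the signal difference of 9.72 points then left out 0 (4.12 to 15.2). The 965 strongest peaks of the list held 181 shared peaks.

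The lower share of the RUNX core no longer left out 0 with the narrow windows (-2.57 points), within 25 bp of the summit (-2.50) and with replicate 1 alone (-3.94). Leaving out 1 replicate gave -4.72 to -3.94 points for the core, 304 to 320 shared peaks and density ratios from 3.48 to 3.88. The ACGCAG difference, which included 0 throughout, turned positive with windows of 2000 to 500 bp (1.44), with whole regions (0.361) and among the 965 strongest peaks (0.211).

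The density ratio stayed above 1 (2.09 to 5.19) and the GAGAGA difference below 0 (-19.3 to -7.66) in each alternative run. All transcripts, genes of at least 100 bp and autosomes alone were alternatives chosen after seeing the data, and changed no call. Whole regions give no density and no placement and were not run for these. No paired analysis was possible because there is 1 group.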

Other observations

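Against their own flanks, 300 bp to either side, the shared summits were richest in GC-rich words. GAGCGC was at 18.6% of summits and 2.83% of flanks, GCGCAC at 16.4% and 1.10%, AGCGCG at 16.4% and 1.42%, and ACGCGC at 15.7% and 0.786%. At least 1 of these 4 words was at 130 of 318 shared peaks (40.9%, 35.6 to 46.4), at 27.6% (24.5 to 30.9) of single-start peaks and at 17.5% (15.1 to 20.2) of peaks away from starts. It was at 43.3% of the 30 shared peaks with a RUNX core and at 40.6% of the 288 without one. At midpoints of divergent pairs without a peak it was 9.14% (8.04 to 10.4). Mean GC content was 48.2% at the shared summits, 36.29% and 36.05% at their flanks and 34.0% at these midpoints. The words were not compared at equal GC content. They were chosen after their values were seen, on these summits, so the values are a description.

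Upstream of ribosomal protein genes, ACCGTA was counted within 300 bp of the most upstream start. It was at 14 of 39 genes with a peak (35.9%, 22.7 to 51.6) and at 6 of 39 without (15.4%, 7.25 to 29.7). These intervals overlap, and over all protein-coding genes the share was 8.54%. The word was chosen after its values at the shared peaks were seen, ribosomal ones among them, so these counts are a description. The other shared peaks with the word, named after their values were seen, included lin-53/nra-2 with a signal of 273.9, htz-1/wapl-1 with 170.1, Y55F3AR.2/cct-8 with 166.1, clsp-1/eef-2 with 137.6 and eef-1A.1/rfc-4 with 120.0. LIN-53 is a histone-binding protein of several chromatin complexes, HTZ-1 is the histone variant H2A.Z, CCT-8 is a chaperonin subunit, and EEF-2 and EEF-1A.1 are elongation factors of translation.

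Starts of genes of the annotation class ncRNA lay within reach of 14.5% of shared and 22.6% of single-start summits, a difference of -8.15 points (-12.8 to -2.99). Starts of tRNA genes were at 1.89% and 3.90%, with an interval of the difference of -3.95 to 0.448.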
